A study of Mus musculus with 96 samples.

Results

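Gene expression in sciatic nerve was compared between mice moved from a high-fat to a ketogenic diet with a running wheel (KDI_EX, 7 libraries) and mice kept on the high-fat diet without a wheel (HFD, 6 libraries). These 13 libraries are among 96 in the series, and 47 of the 96 are from nerve. The genes described are the 16957 of 22632 in the nerve files whose deposited log2 value was at least 3.32, the log2 of 10, in at least 6 of the 13 libraries. Of these, 16616 reached that value in at least 6 libraries of each group, and none was below it in every library of either group.

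All animals were singly housed male C57BL/6J mice whose diets began at 12 weeks of age and whose tissue was taken at 26 weeks. HFD animals ate a lard-based diet with 60% of energy from fat throughout. KDI_EX animals ate the same diet for 6 weeks, and from 18 weeks of age ate a cocoa butter-based diet with 90% of energy from fat and had a wheel for the remaining 8 weeks. KDI and EX each made 1 of these 2 changes at 18 weeks, KDI the ketogenic diet and EX the wheel (7 nerve libraries each), while SD animals ate a diet with 10% of energy from fat (6 libraries). KD animals ate the ketogenic diet from 12 weeks, and DR animals went from the high-fat to the standard diet at 18 weeks (7 libraries each). KDI_EX and HFD therefore differ in diet and in wheel access together, and the amount of running was not analysed here.

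The sciatic nerve is a bundle of axons wrapped by Schwann cells, which make myelin, inside connective tissue sheaths that hold fibroblasts, macrophages, mast cells, vessels and fat. A ketogenic diet is so low in carbohydrate that the liver makes ketone bodies from fatty acids, and many tissues then burn fat and ketones in place of glucose. A fat-rich obesogenic diet is known to damage peripheral nerve in mice and to raise inflammatory genes in fat tissue.

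The labelled tissue held its defining transcripts. All 24 myelin and Schwann cell markers passed the filter, and Mbp, which encodes myelin basic protein, stood at 18.70 ± 0.13 in HFD and 18.58 ± 0.31 in KDI_EX. Markers of neighbouring tissue were present in some libraries. A score was taken as the mean, over a marker list, of each gene's value minus its mean over the 47 nerve libraries. The skeletal muscle score (25 markers, all passing the filter) ran from -1.35 to 2.56 in HFD and from -1.38 to 3.01 in KDI_EX, where replicate 7 was highest and replicate 6 followed at 1.07. The adipocyte score (23 of 24 markers passing) ran from -0.88 to 0.52 in HFD and from -1.11 to 1.03 in KDI_EX, where replicates 6 and 7 were highest. These 2 libraries also lay lowest of the 13 on the first principal component of the nerve libraries, which held 30.8% of the variance. Their myelin scores were -0.63 and -0.34, against -0.11 to 0.16 in HFD. No batch is named in the labels, which also do not say which mouse gave each library. The p-values therefore measure the spread between libraries within regimens, pooled over the 47 nerve libraries. Values are on the deposited log2 scale, a difference of 1 standing for a doubling as far as the unstated transform preserves folds. In such bulk tissue, fewer cells of a type and less RNA per cell cannot be told apart.

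Only a small set of genes separated the regimens. In KDI_EX, 12 of 16957 genes (0.0708%) passed an adjusted p under 0.05, 7 of them higher (0.0413%) and 5 lower (0.0295%). Higher were Cyp1a1, Cfd, Unc93a2, Adgrg2, Negr1, 9430064I24Rik and Gstt2. Lower were Tph2, Saa3, Serpina3n, Lox and Cnn2. The test was limma's moderated test in a fit of all 47 nerve libraries, and 971 genes (5.73%) had an unadjusted p under 0.05. The median log2 difference over all genes was 0.000678, with 50.4% positive. The calls rest on the spread shared with the other regimens: fitted on the 13 libraries alone, limma called 0 genes, with 629 at an unadjusted p under 0.05. Without KDI_EX replicates 6 and 7, a choice made after seeing the data, 1 gene was called, Cyp1a1.

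**Figure D1:**
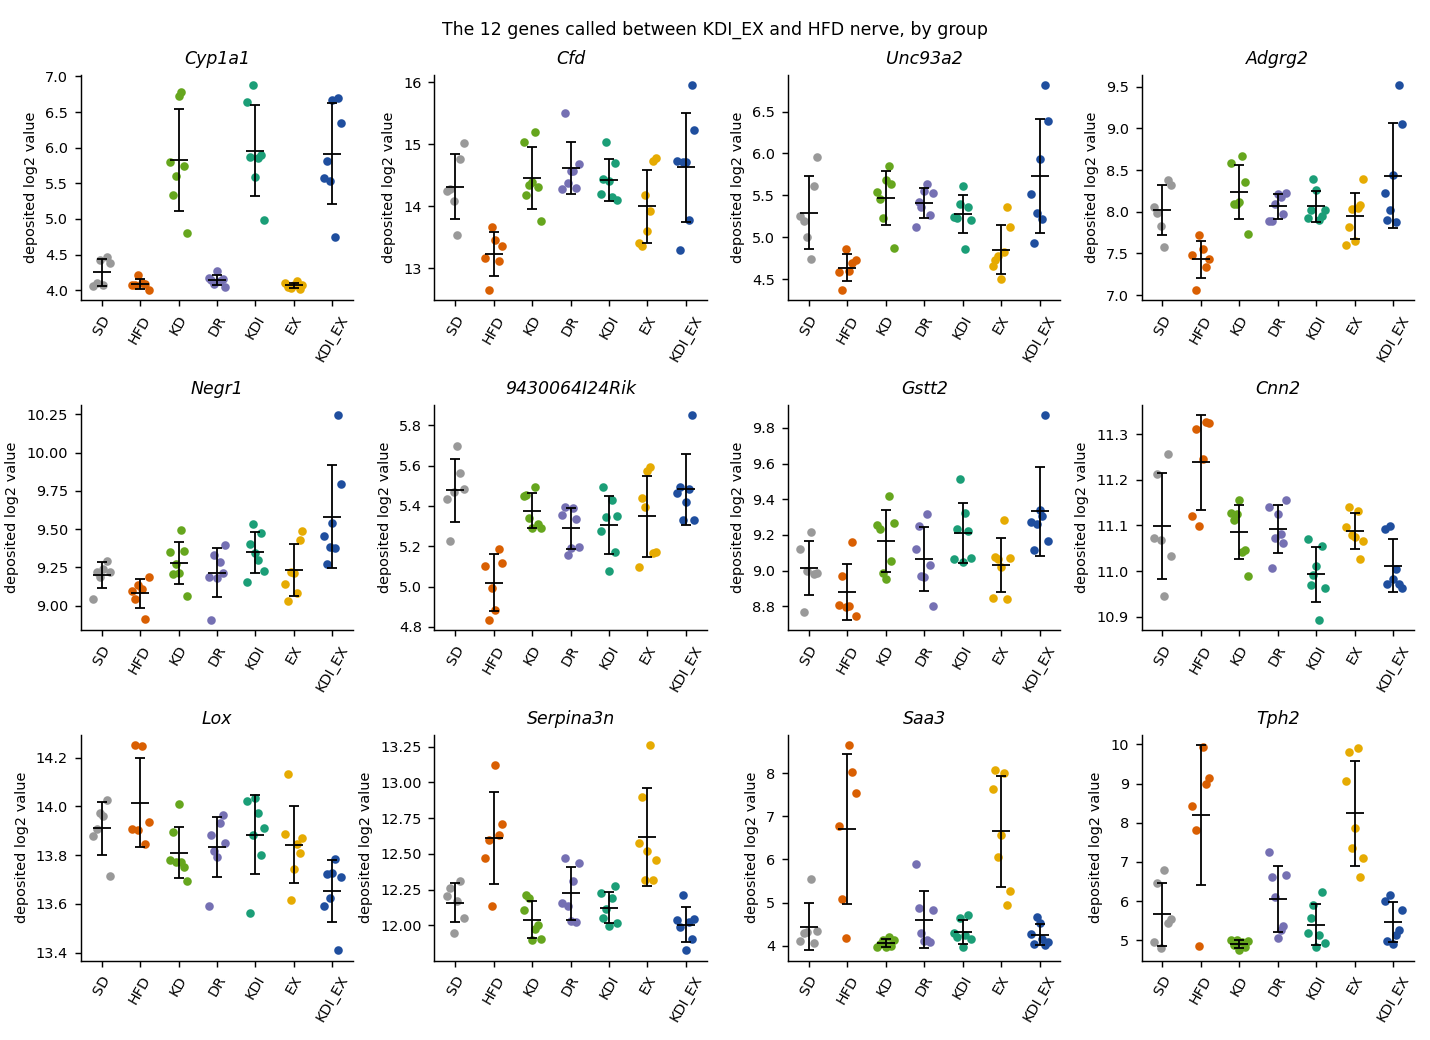
Deposited log2 value (vertical axis) of the 12 called genes in every nerve library, by regimen; points are libraries, and the bar and whiskers are mean ± SD (n = 6 for SD and HFD, 7 for the others). Cyp1a1 had no KDI_EX library below 4.74 and no HFD library above 4.21, while Tph2 and Saa3 had 1 HFD library, replicate 3, among the KDI_EX values.

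Cyp1a1 encodes a cytochrome P450 that oxidises aromatic compounds and is the classic target of the aryl hydrocarbon receptor, a ligand-activated transcription factor. It lies on chromosome 9, 57687928 to 57703824, on the + strand (GENCODE annotation of GRCm38). The promoter is shown because this gene had the smallest adjusted p. It is the RefSeq window chr9:57697363-57697662 of GRCm38.p6, + strand, from 250 bases before to 50 bases after the transcript start. Capitals mark GCGTG, the core that this receptor binds, searched on both strands.
Cyp1a1 promoter: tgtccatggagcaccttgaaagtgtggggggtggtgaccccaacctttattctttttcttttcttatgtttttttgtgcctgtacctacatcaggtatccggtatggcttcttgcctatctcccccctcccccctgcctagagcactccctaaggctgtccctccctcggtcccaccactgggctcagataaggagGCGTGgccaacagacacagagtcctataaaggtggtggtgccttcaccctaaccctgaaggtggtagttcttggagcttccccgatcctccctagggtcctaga
The window holds 1 GCGTG, at position -54 from the transcript start, and 32.4% of the 32851 promoter windows of 300 bases hold at least 1. The match is a description of letters and not of binding.

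The Cyp1a1 values ran from 4.0 to 4.21 (median 4.08) in HFD and from 4.74 to 6.70 (median 5.82) in KDI_EX. Every KDI_EX library lay above every HFD library. The level went from 4.09 ± 0.07 to 5.91 ± 0.71 (SD, n = 6 and 7), and Cyp1a1 rose by 1.82 ± 0.25 log2 units (SE; adjusted p = 0.000121). KDI_EX replicate 5 was the lowest of its group and replicate 6 the highest. Among the other regimens, Cyp1a1 stood at 5.83 ± 0.72 in KD, which had the ketogenic diet from the start, and at 4.14 ± 0.07 in DR. With KDI_EX replicates 6 and 7 left out the difference was 1.58 (adjusted p = 0.00815), and in the fit of the 13 libraries alone its adjusted p was 0.175.

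The other genes of the aryl hydrocarbon receptor list did not pass the test. Of the 9 tested, 5 had positive differences, with a median of 0.00. Ahrr, the receptor's repressor, had 0.21 ± 0.10 (adjusted p = 0.866), and Ahr, the receptor itself, had -0.19 ± 0.08 (adjusted p = 0.806). Cyp1b1, a related P450, had 0.01 ± 0.10, Tiparp, which restrains the receptor, had -0.00 ± 0.07, and Nqo1, a quinone reductase, had 0.00 ± 0.06.

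Of the 5 genes that fell, Tph2 and Saa3 had the largest differences. Tph2 (chromosome 10, 115078641 to 115185022, - strand) encodes the neuronal form of tryptophan hydroxylase, the first enzyme of serotonin synthesis. Its values ran from 4.85 to 9.93 (median 8.71) in HFD and from 4.90 to 6.14 (median 5.27) in KDI_EX. Apart from HFD replicate 3 at 4.85, every HFD library was at or above 7.81, so the groups overlapped through that library alone. Tph2 fell by 2.74 ± 0.53 log2 units, from 8.19 ± 1.78 to 5.46 ± 0.51 (adjusted p = 0.0129), and 7 of 7 KDI_EX libraries were below the HFD mean. In the limma fit of the 13 libraries alone the SE was 0.64 and the adjusted p 0.914.

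Saa3 (chromosome 7, 46711998 to 46715700, - strand) encodes a serum amyloid A made in mice outside the liver, in fat and macrophages among other sites. Its values ran from 4.18 to 8.65 (median 7.16) in HFD and from 4.02 to 4.67 (median 4.16) in KDI_EX. HFD replicate 3 was again within the KDI_EX range, and HFD replicate 2 followed at 5.09. Saa3 fell by 2.46 ± 0.47, from 6.71 ± 1.74 to 4.26 ± 0.25 (adjusted p = 0.0129). With the 13 libraries fitted alone the SE was 0.60 and the adjusted p 0.998.

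Several macrophage genes had negative differences that did not pass the test. Itgad, the integrin alpha D chain of macrophages, ran from 4.62 to 10.47 (median 8.98) in HFD and from 4.65 to 6.5 (median 4.74) in KDI_EX. Its difference of -3.39 ± 0.74 was the most negative of all genes tested, with adjusted p = 0.0536. Mmp12, the macrophage metalloelastase, ran from 5.85 to 9.34 (median 8.38) in HFD and from 5.21 to 6.83 (median 5.38) in KDI_EX (difference -2.32 ± 0.56, adjusted p = 0.113). Itgax, the integrin chain known as CD11c, had -0.93 ± 0.29 (adjusted p = 0.456), and Lgals3, galectin-3, had -0.44 ± 0.17 (adjusted p = 0.732). HFD replicate 3 was the lowest HFD library for Itgad and Mmp12, whereas replicate 2 was lowest for Itgax.

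**Figure D2:**
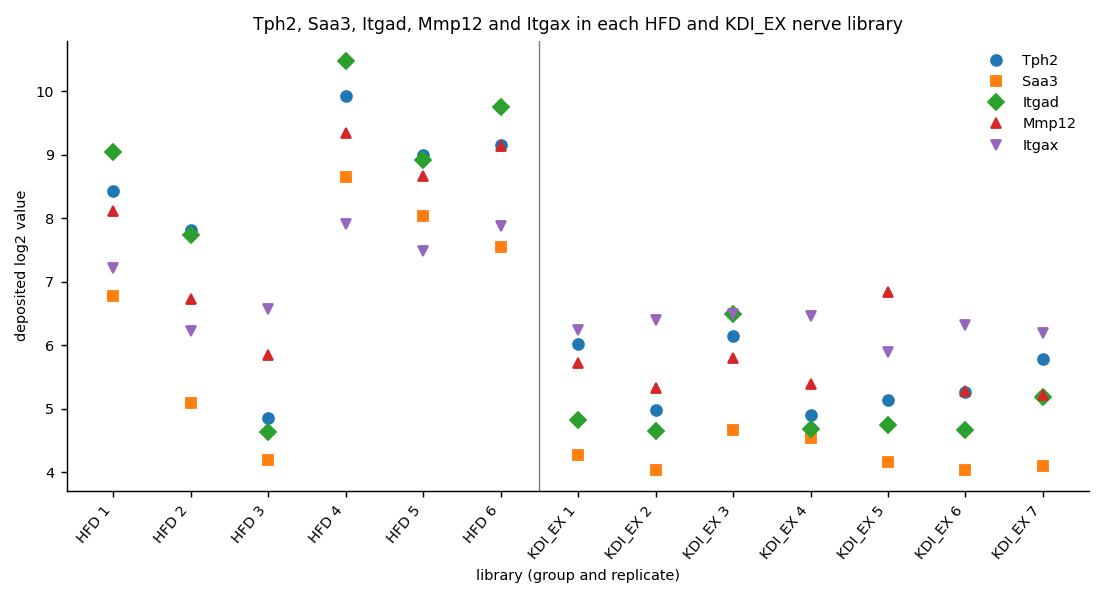
Deposited log2 values (vertical axis) of Tph2, Saa3, Itgad, Mmp12 and Itgax in each HFD and KDI_EX library (horizontal axis), 1 point per library; the vertical line parts the 2 regimens. HFD replicate 3 holds Tph2 at 4.85, Saa3 at 4.18 and Itgad at 4.62, whereas HFD replicate 4 holds them at 9.93, 8.65 and 10.47.

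HFD replicate 3 bore on these values directly. It was singled out after its low values of these same genes were seen, so smaller p-values without it give them no support. Without it, the differences were -3.40 for Tph2, -2.96 for Saa3, -4.15 for Itgad and -2.74 for Mmp12, with adjusted p = 4.35e-05, 0.000188, 0.00123 and 0.0153. That setting called 27 genes, 8 higher and 19 lower. In the other direction, leaving out HFD replicate 4, 5 or 6 ended the calls of Tph2 and Saa3 (adjusted p = 0.101 and 0.104 without replicate 4, 0.0625 and 0.0713 without replicate 5, and 0.0705 for both without replicate 6). HFD replicate 3 had the lowest adipocyte score of its group, -0.88, and replicate 4 the highest, 0.52. Replicate 2 was next lowest at -0.62. The part of fat content in the Tph2 and Saa3 values was not tested. With the muscle and adipocyte scores as covariates, Tph2 had -2.93 and Saa3 -2.58, with adjusted p = 0.000423 and 0.00139.

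The macrophage list as a whole held no call. Of its 26 markers, 14 had positive and 12 negative differences (median 0.01), and 3 had an unadjusted p under 0.05, all negative (11.5%, against 5.73% of all genes). The median lay near 0 and changed sign in 10 of 22 settings, to -0.11 without KDI_EX replicates 6 and 7. The pan-macrophage markers Cd68 and C1qa had -0.23 ± 0.22 and 0.24 ± 0.20. The macrophage score ran from -0.23 to 0.59 in HFD and from -0.22 to 0.36 in KDI_EX.

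Acute-phase genes encode secreted proteins that inflammation induces. Of 11 tested members of 16 listed, 9 were negative and 2 positive, with a median of -0.43. Saa3 and Serpina3n fell and none rose, where 0.0708% of all genes were called. Of the 11, 5 had an unadjusted p under 0.05, all negative (45.5%, against 5.73% of all genes). Serpina3n, a secreted inhibitor of serine proteases (chromosome 12, 104406729 to 104414329, + strand), ran from 12.13 to 13.12 (median 12.62) in HFD and from 11.82 to 12.21 (median 12.02) in KDI_EX. The groups overlapped through HFD replicate 3 alone, which stood at 12.13. Serpina3n fell by 0.60 ± 0.11, from 12.61 ± 0.32 to 12.01 ± 0.12 (adjusted p = 0.0105), and leaving out HFD replicate 4 or 6 ended the call (adjusted p = 0.0954 and 0.051). It has close paralogues beside it in the genome, and how reads were shared among them is not given in the sources used here. Haptoglobin, Hp, had -1.47 ± 0.41, from 14.44 ± 1.16 to 12.97 ± 0.95 (adjusted p = 0.288), and Lrg1, a leucine-rich plasma glycoprotein, had -0.65 ± 0.30 (adjusted p = 0.835). Without KDI_EX replicates 6 and 7, 10 of the 11 were negative, the median was -0.59 and none was called.

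Lox and Cnn2 fell by smaller amounts. Lox encodes lysyl oxidase, which cross-links collagen and elastin (chromosome 18, 52516067 to 52529867, - strand). Its values ran from 13.85 to 14.25 (median 13.92) in HFD and from 13.41 to 13.78 (median 13.71) in KDI_EX, so the groups did not overlap. Lox fell by 0.36 ± 0.08 (adjusted p = 0.0418), a call that 8 of the 13 settings that each left out 1 HFD or KDI_EX library ended. Cnn2, the actin-binding calponin 2 (chromosome 10, 79988584 to 79996062, + strand), ran from 11.10 to 11.33 (median 11.28) in HFD and from 10.96 to 11.10 (median 10.98) in KDI_EX. It fell by 0.23 ± 0.04 (adjusted p = 0.00948; 0.0564 without HFD replicate 6), and HFD replicate 3 met the highest KDI_EX library at 11.10.

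Other extracellular matrix genes had negative differences that did not pass the test. Of 41 tested members, 27 were negative and 14 positive (median -0.08). An unadjusted p under 0.05 was held by 8, all negative, Lox among them (19.5%, against 5.73% of all genes). The list had 35 negative members and a median of -0.15 without KDI_EX replicates 6 and 7. Col4a1 and Col4a2, the main collagen chains of basement membrane, had -0.27 ± 0.10 and -0.29 ± 0.11. Plod1 and P4ha2, which hydroxylate collagen, had -0.15 ± 0.05 and -0.20 ± 0.08, and Sparc, a collagen-binding matrix protein, had -0.18 ± 0.06 (adjusted p from 0.477 to 0.72 for these 5).

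KDI_EX replicate 6 was the highest library of its group for all 7 genes that rose. Adgrg2 encodes an adhesion G protein-coupled receptor (chromosome X, 160390690 to 160498070, + strand). It ran from 7.06 to 7.72 (median 7.46) in HFD and from 7.88 to 9.52 (median 8.22) in KDI_EX. No library overlapped, and Adgrg2 rose by 1.0 ± 0.18, from 7.43 ± 0.22 to 8.43 ± 0.63 (adjusted p = 0.00948). KDI_EX replicates 6 and 7, at 9.52 and 9.05, were the only ones of the 13 libraries above 8.44.

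Unc93a2, a member of the UNC93 family of membrane proteins (chromosome 17, 7362815 to 7385464, - strand), ran from 4.37 to 4.86 (median 4.64) in HFD and from 4.94 to 6.82 (median 5.52) in KDI_EX. The groups did not overlap, although KDI_EX replicate 2 at 4.94 lay close to the highest HFD library. Unc93a2 rose by 1.09 ± 0.20 (adjusted p = 0.00948). Negr1, a cell adhesion molecule of the immunoglobulin family on neurons (chromosome 3, 156561794 to 157316445, + strand), ran from 8.92 to 9.19 (median 9.10) in HFD and from 9.27 to 10.25 (median 9.45) in KDI_EX. It rose by 0.50 ± 0.10 without overlap (adjusted p = 0.0133), and leaving out HFD replicate 5 or KDI_EX replicate 7 ended the call.

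Cfd encodes complement factor D, also called adipsin, a serine protease that fat cells secrete (chromosome 10, 79890853 to 79892655, + strand). It ran from 12.65 to 13.67 (median 13.26) in HFD and from 13.30 to 15.96 (median 14.72) in KDI_EX. The groups overlapped, since KDI_EX replicate 2 at 13.30 lay below 3 HFD libraries. Cfd rose by 1.40 ± 0.30, from 13.24 ± 0.35 to 14.63 ± 0.88 (adjusted p = 0.0418), and 10 of the 13 settings that each left out 1 library ended the call.

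Gstt2, a theta-class glutathione S-transferase (chromosome 10, 75831114 to 75837424, - strand), ran from 8.74 to 9.16 (median 8.80) in HFD and from 9.12 to 9.87 (median 9.27) in KDI_EX. The groups overlapped through HFD replicate 5 and KDI_EX replicate 2. Gstt2 rose by 0.45 ± 0.10 (adjusted p = 0.0418), a call that ended in 8 of the 13 settings that each left out 1 library. The transcript 9430064I24Rik (chromosome 7, 127800094 to 127802762, - strand), named after its values were seen because its symbol is a placeholder, has the biotype TEC in the annotation, a gene model that awaits experimental evidence. It ran from 4.83 to 5.19 (median 5.05) in HFD and from 5.33 to 5.85 (median 5.47) in KDI_EX, and rose by 0.46 ± 0.08 without overlap (adjusted p = 0.00948).

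The adipocyte marker score, of which Cfd is itself a member, moved with several of these genes among the KDI_EX libraries. Replicate 2, with the lowest score at -1.11, had the lowest Cfd, Unc93a2 and Negr1, and replicate 6, with the highest score at 1.03, had the highest value of each. With Cfd taken out of the score, these 2 libraries were still the lowest and the highest of the group, at -1.12 and 1.0. The HFD libraries, with scores from -0.88 to 0.52, showed no such order for Cfd: replicate 3 had the lowest score and the highest Cfd, 13.67. Fat markers were not alone in setting these KDI_EX libraries apart. Within KDI_EX, replicate 6 also had the highest pericyte and smooth muscle (0.91), mast cell (0.78) and fibroblast (0.40) scores and the lowest myelin score (-0.63). Replicate 2 also had the lowest blood cell (-1.19) and acute-phase (-0.72) scores. Which score the genes followed was not tested. With muscle and adipocyte scores as covariates, Cfd included in the latter, all 12 genes remained called, with differences of 1.28 for Cfd, 0.96 for Adgrg2 and 1.03 for Unc93a2, and 106 genes were called in all, 52 higher and 54 lower. When KDI_EX replicates 6 and 7 were left out, the differences were 1.01 for Cfd, 0.66 for Adgrg2, 0.74 for Unc93a2 and 0.32 for Negr1, with adjusted p = 0.519, 0.146, 0.221 and 0.282.

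**Figure D3:**
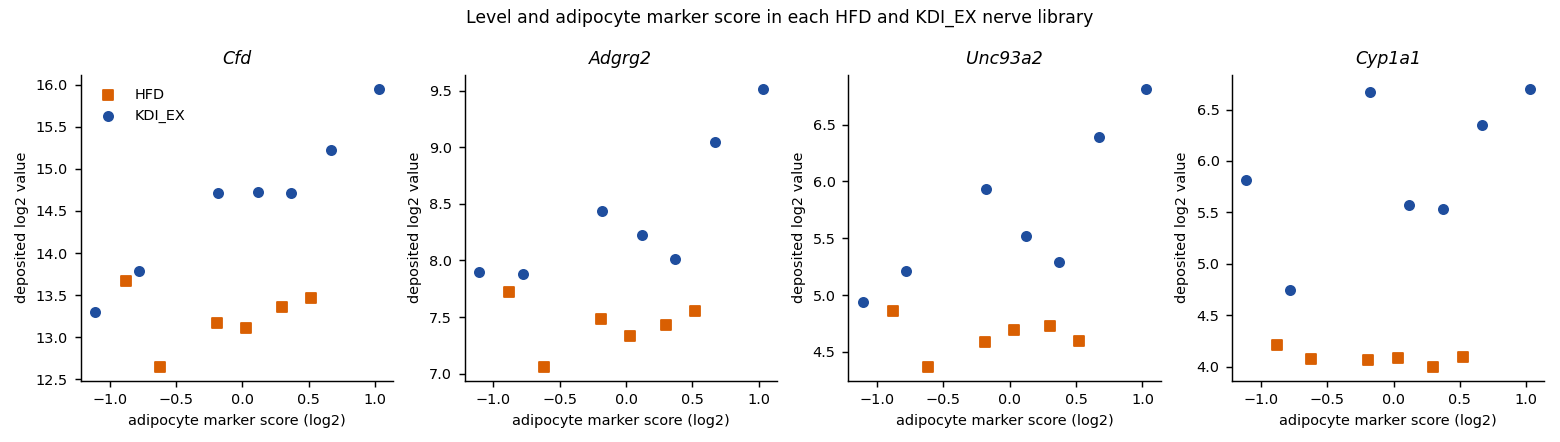
Deposited log2 value (vertical axis) of Cfd, Adgrg2, Unc93a2 and Cyp1a1 against the adipocyte marker score (horizontal axis, log2 units; Cfd is 1 of its markers) in the 6 HFD libraries (squares) and 7 KDI_EX libraries (circles). The KDI_EX library with the highest score, 1.03, is highest for all 4 genes, and for Cyp1a1 KDI_EX replicate 4, with a score of -0.18, stands beside it at 6.67.

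Adipocyte genes themselves did not move one way. Of 23 tested, 16 were positive and 7 negative (median 0.12), with Cfd the only call. Pck1, phosphoenolpyruvate carboxykinase, which feeds glycerol synthesis in fat, had 1.01 ± 0.31 (adjusted p = 0.437), and Adig, adipogenin, had 0.74 ± 0.26 (adjusted p = 0.592). Lep, which encodes leptin, ran from 10.73 to 14.34 (median 13.40) in HFD and from 9.79 to 13.09 (median 12.09) in KDI_EX. The groups overlapped widely, and the Lep difference was -1.33 ± 0.56 (adjusted p = 0.788). Dgat2, which completes triglyceride synthesis, had -0.84 ± 0.37 (adjusted p = 0.806), and Adipoq, which encodes adiponectin, had -0.06 (adjusted p = 0.999). Without KDI_EX replicates 6 and 7 the balance of the list turned, with 7 positive, 16 negative and a median of -0.14.

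Other genes with small p-values did not pass the test. Sctr, the secretin receptor, ran from 4.96 to 5.34 in HFD and from 5.52 to 6.89 in KDI_EX without overlap (0.80 ± 0.18, adjusted p = 0.0711). H2-Q10, a secreted class I histocompatibility molecule with close paralogues, ran from 6.92 to 7.45 and from 7.69 to 10.16 without overlap (1.41 ± 0.34, adjusted p = 0.109). Chrm3, a muscarinic acetylcholine receptor, had 0.44 ± 0.10, Slc27a1, a fatty acid transporter, had 0.32 ± 0.07, and Slc1a3, a glutamate transporter of glia, had 0.84 ± 0.21 (adjusted p = 0.0711, 0.096 and 0.115). Over all genes tested, the 2 groups did not overlap for 25 genes (0.147%), 18 with KDI_EX above (0.106%) and 7 with KDI_EX below (0.0413%).

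The gene lists are described by counts and medians beside those of all genes, and no list was tested as a set. The plot of list members shows medians close to 0 for most lists. Blood cell genes had the most negative median, -0.73 over 6 tested genes of 12 listed, all negative and none called, and the median was -1.22 without KDI_EX replicates 6 and 7. The haemoglobin genes Hba-a1 and Hbb-bs had -0.71 and -0.76. Skeletal muscle genes had a median of -0.18, with 22 of 25 negative, no call and none at an unadjusted p under 0.05. HFD replicate 1 (score 2.56) and KDI_EX replicate 7 (3.01) were the highest for muscle genes in their groups. The direction depended on single libraries: 19 of 25 were positive (median 0.27) without HFD replicate 3, and leaving out HFD replicate 1 or KDI_EX replicate 1, 4 or 5 also turned the median positive. It was -0.86 without EX replicate 5 and KDI_EX replicate 7 and -1.29 without KDI_EX replicates 6 and 7, with 25 of 25 negative in both.

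**Figure D4:**
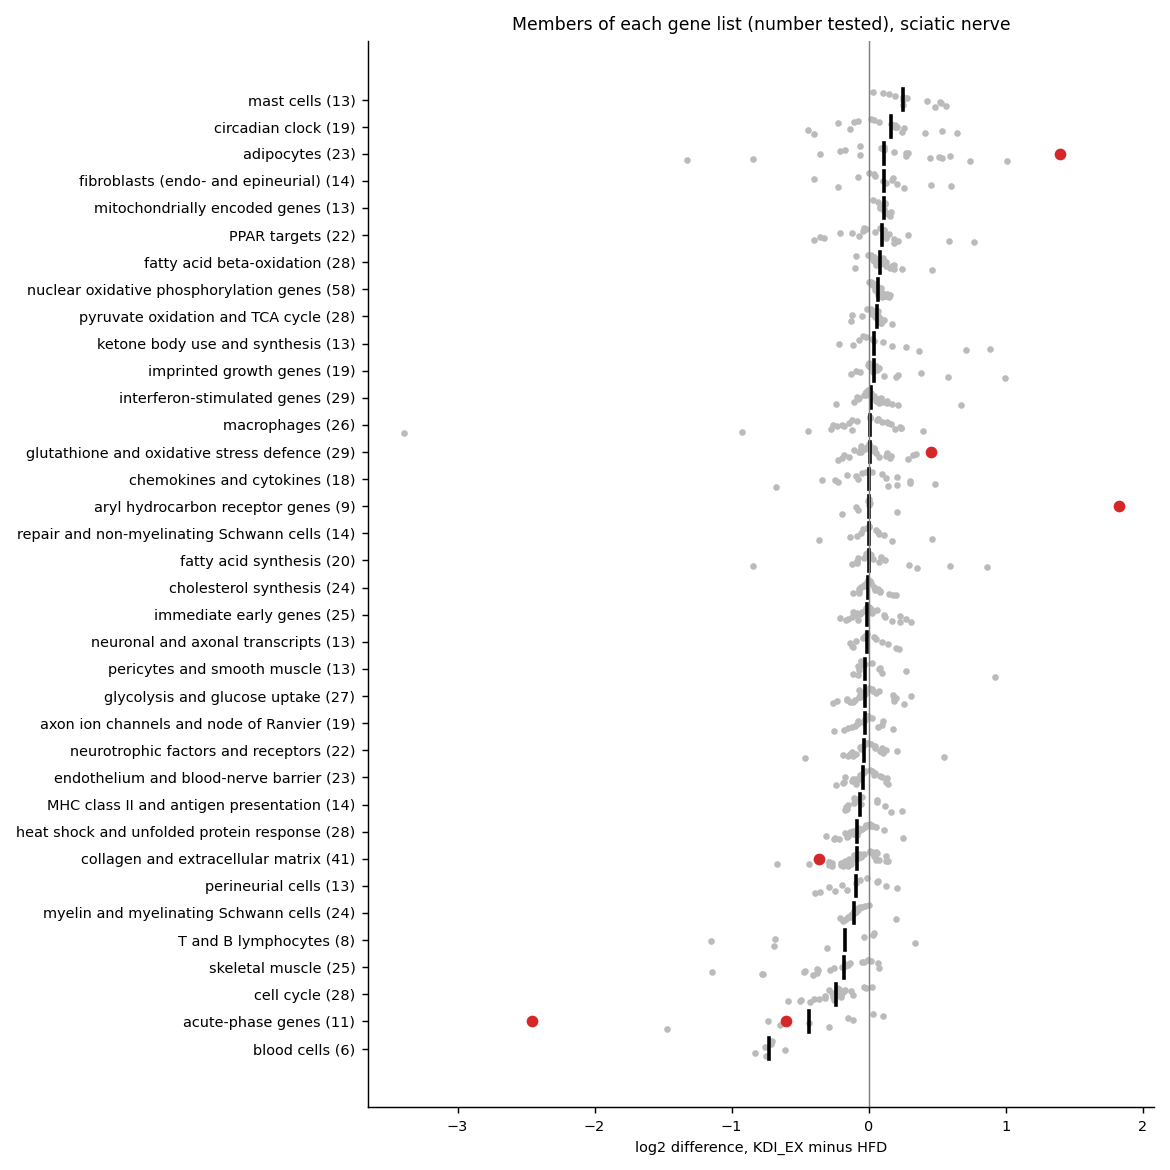
Log2 difference, KDI_EX minus HFD (horizontal axis), of each tested member of the 36 gene lists (vertical axis, number tested in brackets); grey points are members, red points members with adjusted p under 0.05, black bars list medians. The medians run from -0.73 for blood cells to 0.25 for mast cells.

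Circadian clock genes held the highest share of small p-values among the lists, with no call. Of 19 tested, 10 had an unadjusted p under 0.05 (52.6%, against 5.73% of all genes), 7 positive and 3 negative. The clock is a feedback loop in which Arntl and Clock drive Per and Cry genes and the Nr1d repressors, and these in turn restrain Arntl and Clock. Arntl ran from 9.30 to 9.69 (median 9.48) in HFD and from 8.80 to 9.42 (median 9.06) in KDI_EX, and 7 of 7 KDI_EX libraries lay below the HFD mean (-0.40 ± 0.12, adjusted p = 0.437). Dbp, an output gene of the loop, ran from 10.13 to 10.98 (median 10.47) in HFD and from 10.74 to 11.61 (median 11.17) in KDI_EX (0.65 ± 0.20, adjusted p = 0.437). Both pairs of groups overlapped in part.

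The repressors Nr1d1 and Nr1d2 had 0.41 ± 0.13 and 0.24 ± 0.08, and Ciart, a repressor of the Arntl and Clock pair, had 0.54 ± 0.21. Nfil3, a repressor that competes with Dbp for the same sites, had -0.44 ± 0.18, and Cry1 had -0.14 ± 0.06. Per1 and Cry2 had -0.07 ± 0.10 and 0.01 ± 0.06. Animals were kept on a cycle of equal light and dark, and the hour of tissue collection is not given in the sources used here, so its part in these values was not tested. With KDI_EX replicates 6 and 7 left out, 6 of the 19 had an unadjusted p under 0.05, and the median went from 0.16 to 0.04.

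**Figure D5:**
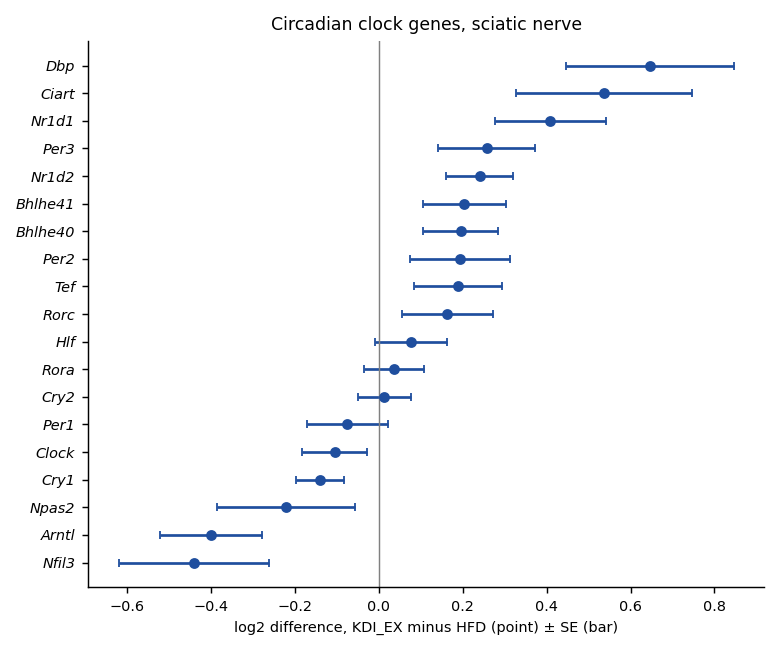
Log2 difference, KDI_EX minus HFD (horizontal axis; points are estimates, bars ± SE), of the 19 circadian clock genes tested (vertical axis). Nfil3 and Arntl are lowest at -0.44 and -0.40, Dbp and Ciart highest at 0.65 and 0.54, and none has an adjusted p under 0.05.

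The Ciart promoter is shown as the clock promoter with the most E-boxes, the element that the Arntl and Clock pair binds. It is the RefSeq window chr3:95882179-95882478 of GRCm38.p6, - strand, and capitals mark CACGTG, which reads the same on both strands.
Ciart promoter: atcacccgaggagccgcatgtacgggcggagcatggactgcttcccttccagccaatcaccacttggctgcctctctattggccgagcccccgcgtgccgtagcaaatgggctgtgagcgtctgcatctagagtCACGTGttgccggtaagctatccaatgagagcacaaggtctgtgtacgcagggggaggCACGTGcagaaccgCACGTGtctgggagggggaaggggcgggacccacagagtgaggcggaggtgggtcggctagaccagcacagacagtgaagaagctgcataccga
It holds 3 CACGTG matches that do not overlap. Of 16 clock genes with a promoter window, 5 hold at least 1 (31.2%), against 7.15% of all windows, where some of the 16 have several windows. These matches describe letters and not binding.

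Cell cycle genes were nearly all lower without a call. Of 28 tested, 27 were negative (median -0.24), and 4 had an unadjusted p under 0.05, all negative (14.3%, against 5.73% of all genes). Mki67, the proliferation marker Ki-67, had a level of 7.70 ± 0.36 in HFD and 7.11 ± 0.08 in KDI_EX (-0.59 ± 0.26, adjusted p = 0.823). Ccna2, which encodes cyclin A2, ran from 6.01 to 6.63 (median 6.37) in HFD and from 5.60 to 5.99 (median 5.87) in KDI_EX (-0.50 ± 0.18, adjusted p = 0.695). Every KDI_EX library lay below every HFD library for Mki67 and Ccna2, a layout that 7 of all genes tested had (0.0413%). Bub1, a mitotic checkpoint kinase, had it too but stood close to the filter value, at 3.61 ± 0.15 and 3.36 ± 0.08. Its HFD libraries alone were enough to pass the filter, so its layout adds no support. Bub1b, a related kinase, had -0.43 ± 0.11 (adjusted p = 0.203). Without KDI_EX replicates 6 and 7, all 28 were negative with a median of -0.24.

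Mast cell genes were all higher without a call. All 13 tested were positive (median 0.25), and 5 had an unadjusted p under 0.05 (38.5%, against 5.73% of all genes). The proteases Cma1, Tpsb2 and Cpa3 had 0.56 ± 0.25, 0.53 ± 0.24 and 0.52 ± 0.25, and Mrgprb1, a receptor of mast cells, had 0.48 ± 0.20. The mast cell score ran from -0.58 to 0.17 in HFD and from -0.31 to 0.78 in KDI_EX, with replicate 6 highest. When KDI_EX replicates 6 and 7 were left out, 10 of 13 were positive (median 0.15), with none at an unadjusted p under 0.05.

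Myelin genes had small negative differences without a call. Of 24 tested, 23 were negative (median -0.11) and none had an unadjusted p under 0.05. Mbp had -0.12 ± 0.10 (adjusted p = 0.984), and Pmp2, a myelin lipid-binding protein, had 0.20 ± 0.13 as the only positive member. Without KDI_EX replicates 6 and 7, whose myelin scores were low, the balance of the list reversed, with 20 positive and a median of 0.06. Oxidative phosphorylation genes had small positive differences: all 58 nuclear members (median 0.07) and all 13 mitochondrially encoded members (median 0.11) were positive, and none had an unadjusted p under 0.05. In the setting without KDI_EX replicates 6 and 7, 42 of 58 and 8 of 13 were positive, and the mitochondrially encoded median was 0.0090. With library quality weights that median was -0.06. HFD replicate 5 had the lowest mitochondrially encoded score of the 13 libraries, -0.54.

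Genes that handle fatty acids and ketone bodies held no call. Of 28 genes of fatty acid beta-oxidation, 25 were positive (median 0.08), led by Ehhadh, a peroxisomal enzyme, with 0.46 ± 0.13 (adjusted p = 0.295). The list turned to 11 positive and 17 negative (median -0.021) without KDI_EX replicates 6 and 7. Among the 13 ketone body genes, 8 were positive (median 0.04). Oxct1, the enzyme that commits ketone bodies to oxidation, had -0.12 (adjusted p = 0.932). Aacs, which turns acetoacetate to lipid synthesis, had 0.37 ± 0.13, and Hcar1 and Hcar2, receptors for lactate and beta-hydroxybutyrate on fat cells, had 0.88 ± 0.32 and 0.71 ± 0.26 (adjusted p from 0.557 to 0.689). Aacs stood at 11.46 in KDI_EX replicate 6, against 10.18 to 10.66 in the rest of KDI_EX. In the ketone body list 3 positive members had an unadjusted p under 0.05. Without KDI_EX replicates 6 and 7, 0 positive members and 1 negative member had such a p. The PPAR targets Pdk4, Angptl4 and Ucp3 had -0.12, -0.40 and 0.05 (adjusted p = 0.997, 0.866 and 0.999). In lipid synthesis, Srebf1, a master regulator of lipogenic genes, had 0.35 ± 0.09 and Acacb, an acetyl-CoA carboxylase, had 0.87 ± 0.27, with Fasn at -0.07 (adjusted p = 0.219, 0.444 and 0.999). Srebf1 stood at 12.64 in KDI_EX replicate 6, against 11.72 to 12.11 in the rest of KDI_EX.

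Comparing KDI_EX with KDI and with EX asks what the wheel and the ketogenic diet added to the other change. The diet switch changed the fat source, from lard to cocoa butter, along with the share of fat, so their parts cannot be told apart. These comparisons share the KDI_EX libraries with the one above. Against the same HFD libraries, KDI had 4 calls (0.0236%), 1 higher (0.0059%) and 3 lower (0.0177%), with 726 genes at an unadjusted p under 0.05 (4.28%). They were Cyp1a1 at 1.87, Tph2 at -2.80, Saa3 at -2.40 and Cnn2 at -0.25 (adjusted p = 6.55e-05, 0.0222, 0.0388 and 0.00522). EX had 0 calls by limma (0%), with 1224 genes at an unadjusted p under 0.05 (7.22%). Against KDI, which had the diet without the wheel, limma called 0 of 16957 genes (0%), with 797 at an unadjusted p under 0.05 (4.7%). Cyp1a1 stood at 5.96 ± 0.64 in KDI, and its difference was -0.05 (95% interval -0.54 to 0.44). Tph2 and Saa3 stood at 5.39 ± 0.53 and 4.32 ± 0.27 in KDI, with differences of 0.06 (-0.96 to 1.09) and -0.06 (-0.98 to 0.86). For Adgrg2 and Lox the intervals left out 0, at 0.37 (0.01 to 0.72) and -0.23 (-0.38 to -0.08), while their adjusted p was 0.996. All 13 mast cell genes were higher than in KDI (median 0.44, 9 at an unadjusted p under 0.05, none called), and without KDI_EX replicates 6 and 7 the median was 0.32 with 12 of 13 positive and 1 such gene.

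Against EX, which had the wheel without the ketogenic diet, 10 genes were called (0.059%), 2 higher (0.0118%) and 8 lower (0.0472%). Cyp1a1 stood at 4.07 ± 0.04 in EX and was higher in KDI_EX by 1.85 (95% interval 1.35 to 2.34; adjusted p = 3.46e-05). Tph2 and Saa3 stood at 8.24 ± 1.34 and 6.65 ± 1.3 in EX and were lower in KDI_EX, with differences of -2.79 (-3.81 to -1.76) and -2.40 (-3.32 to -1.48) and adjusted p = 0.0119 and 0.0159. Serpina3n was also lower, by -0.61 (-0.84 to -0.39; adjusted p = 0.0112). The other 6, chosen after their values were seen, were C130026I21Rik, Hydin, Trabd2b, Rbm28 and Serpina3m, which were lower, and Cldn11, a claudin of tight junctions, which was higher by 0.40 ± 0.08 (adjusted p = 0.0435). Without EX replicate 5 and KDI_EX replicate 7, the libraries with the most muscle signal, Cyp1a1 alone was called. Leaving out EX replicate 5 alone also left 1 call, as did leaving out EX replicate 2 alone, whose muscle score was low at -1.03. Leaving out KDI_EX replicate 7 alone left 9.

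The cell cycle genes also stood lower against EX. All 28 were negative (median -0.41), 24 of them at an unadjusted p under 0.05, against 5.79% of all genes in that comparison, and none was called. Without EX replicate 5 and KDI_EX replicate 7, 28 were negative and 18 had such a p. The EX libraries differed among themselves. Their cell cycle score ran from -0.15 in replicate 6 to 0.76 in replicate 4 (median 0.28), against -0.28 to -0.08 in KDI_EX. Mki67 stood at 7.87 ± 0.60 in EX and 7.10 ± 0.26 in KDI.

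Against SD, the standard diet throughout, 1 gene was called in KDI_EX (0.0059%), and 2713 had an unadjusted p under 0.05 (16%). Cyp1a1 stood at 4.25 ± 0.19 in SD and was higher in KDI_EX by 1.66 (95% interval 1.15 to 2.17; adjusted p = 0.00103). The other called genes had levels in SD that ran from 4.44 ± 0.55 for Saa3 to 14.32 ± 0.52 for Cfd, and none differed from KDI_EX by an adjusted p under 0.05. For Tph2 the difference was -0.21 (-1.27 to 0.86), for Saa3 -0.19 (-1.14 to 0.77) and for Serpina3n -0.15 (-0.38 to 0.08). These intervals are wide beside the differences, so a p that missed the threshold does not show that the levels were alike.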

How the data were processed

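RNA sequencing values of 47 sciatic nerve libraries were used, 13 of them in the comparison of KDI_EX with HFD. The authors deposited a log2 value for each gene symbol in each library, without counts, so depth is unknown and no counting interval can be given. Per the submitters' processing notes, the build was GRCm38 and the tools included STAR 2.7.8a, RSEM 1.3.3 and DESeq2, besides FastQC 0.11.8, MultiQC 1.7 and cutadapt 2.3, with no role or order given. The transform is not stated, and differences of low genes may be understated. Use of strand and the sharing of reads among near-identical copies are not given in the sources used here, so overlapping genes and families such as Serpina3, Saa and H2-Q are uncertain. Library medians were 7.46 to 7.66.

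Genes with a value of at least 3.32 in at least 6 of the 13 libraries were kept. The 7 regimens were fitted by limma 3.58.1 in R 4.3.3, with statmod 1.5.0 and version 1.17.8 of data.table, with trend and robust prior, and two-sided p-values were adjusted by Benjamini-Hochberg over 16957 genes. A gene was called at an adjusted p under 0.05. Coordinates came from GENCODE for GRCm38, which held 16638 of the symbols tested, and promoters from RefSeq. The fit was tested on simulated data with independent libraries and, for each gene, the same spread in every group. That simulation held no outlying libraries, shared tissue content or unequal group spread, so it says nothing of their effect on the calls. Alternatives changed the filter, the libraries fitted, weights, covariates, normalization and prior, and left out libraries.

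The rule for named genes took up to 12 called genes in each direction by size, with a mean of at least 5, medians differing by at least 50% of the change and no placeholder symbol, filled to 20 by smallest p. It added up to 4 called members of each list, or 3 by smallest p where none was called, and a fixed set of nerve, fat and metabolic genes. Genes named beyond it, such as Cd68, C1qa, Per1, Cry2, Pmp2, Bub1 and the haemoglobin genes, were chosen after their values were seen. A few genes that the rule named are not reported here, although they stay in the fit and the list counts. The members and lists were chosen with earlier results of these data known.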

Additional observations from a re-analysis of the deposited data

Results flagged for a closer look

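Each named gene was examined within HFD and within KDI_EX for a library that lay far from the rest of its group by Dixon's criterion, which chance meets in about 1 group in 20. Of 240 such group tests over 120 genes, 24 met it. In HFD replicate 1, the log2 value that stood apart was 8.03 for Tnni1, 7.74 for Myl3 and 8.31 for Myl2. In HFD replicate 2, the log2 value that stood apart was 8.63 for Vegfa and 8.73 for Tap1. In HFD replicate 3, the log2 value that stood apart was 10.17 for Stmn2. In HFD replicate 4, the log2 value that stood apart was 3.93 for Gdf15. In HFD replicate 5, the log2 value that stood apart was 9.73 for Pck2 and 11.9 for Uqcrc2. In KDI_EX replicate 1, the log2 value that stood apart was 6.46 for Cd79b. In KDI_EX replicate 3, the log2 value that stood apart was 6.5 for Itgad. In KDI_EX replicate 5, the log2 value that stood apart was 6.83 for Mmp12, 6.62 for Tnni1 and 10.79 for Thy1. In KDI_EX replicate 6, the log2 value that stood apart was 5.85 for 9430064I24Rik, 9.87 for Gstt2, 12.64 for Srebf1, 11.46 for Aacs, 9.91 for Cnn1, 10.85 for Acat2 and 15.81 for Drp2. In KDI_EX replicate 7, the log2 value that stood apart was 4.85 for Myl3, 12.5 for Pdk4 and 9.89 for Ucp3. KDI_EX replicate 6 held the most of these values. Of the 13 libraries it had the highest adipocyte score, 1.03, the highest pericyte and smooth muscle score, 0.91, and the lowest myelin score, -0.63. The part of these scores in the flagged values was not tested. The muscle genes Tnni1, Myl2 and Myl3 stood apart in HFD replicate 1, whose muscle score was 2.56, and Myl3 in KDI_EX replicate 7, whose score was 3.01.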

How the results depend on the processing

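Against HFD, with 7 genes higher and 5 lower, the count higher was 14 with library quality weights, and the counts were 52 and 54 with muscle and adipocyte scores as covariates, 0 and 0 with only the 2 groups fitted, and 1 and 0 without KDI_EX replicates 6 and 7. Leaving out 1 library gave 5 to 18 higher and 0 to 19 lower. Against EX, with 10 calls, there were 5 with no filter on low values, 35 with quality weights, 51 with the covariates, and 1 each with only the 2 groups fitted, without EX replicate 5 and KDI_EX replicate 7, and without KDI_EX replicates 6 and 7; leaving out 1 library gave 1 to 20. Against KDI, with 0 calls, only the 2 groups fitted gave 1 (Gm2446, 1.0, adjusted p = 0.0353), and leaving out 1 library gave 0 to 0. The cause of these shifts was not tested.

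Small differences turned sign in 13 cases, none of a called gene. With quality weights, Ucp3 was -0.011 and Adipoq 0.0099. Without EX replicate 5 and KDI_EX replicate 7, Ucp3 was -0.057. Without KDI_EX replicates 6 and 7, Suclg2 was -0.012, Mbp 0.042 and Ucp3 -0.087. Leaving out 1 library gave -0.057 to 0.094 for Ucp3, -0.19 to 0.040 for Fasn and -0.30 to 0.21 for Adipoq. Of 792 list medians over the settings, 788 moved by less than 1 SD between libraries and 4 by more, among them the clock median, 0.05 with quality weights. That spread is wide for lists such as skeletal muscle, whose median ran from -1.45 to 0.27, and 105 of the 792, in 23 of 36 lists, changed sign. No paired analysis was possible because no label ties a library of one regimen to a library of another. Depth is unknown, so what it limits could not be assessed.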
